A study of Mus musculus with 564 samples.

Results

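Acetylation of histone H3 at lysine 27 (H3K27ac) was followed at the cis-regulatory elements (CREs) around 8 transcription factor genes of the C/EBP and KLF families, Cebpa, Cebpb, Cebpd, Cebpe, Klf2, Klf4, Klf6 and Klf10, in mouse bone marrow-derived macrophages (BMDMs). An element was included where its centre lay within 25 kb of a RefSeq transcription start of 1 of these genes on mm10, which gave 40 of the 59190 elements in the table. Cebpa and Klf6 had 7 elements each, Cebpe and Klf2 had 5 each, and Cebpb, Cebpd, Klf4 and Klf10 had 4 each. For 36 of the 40 elements the nearest start of a protein-coding gene was that of the member itself. The 4 others were 1 element of Cebpd on the start of Mzt2, 2 elements of Cebpe nearest to Gm29776 and 1 element of Cebpe nearest to Slc7a8.

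The C/EBP proteins are basic leucine zipper factors that bind DNA as dimers, and the KLF proteins are zinc finger factors that bind GC-rich sequence. C/EBPα drives myeloid differentiation, C/EBPβ and C/EBPδ take part in acute-phase and inflammatory gene expression, and C/EBPε acts in granulocyte maturation. KLF2 and KLF4 are known to restrain inflammatory gene expression in myeloid and endothelial cells, KLF6 is known to promote it in macrophages, and KLF10 is a factor induced by TGF-β. H3K27ac marks active promoters and enhancers, so its level at an element is a readout of the activity of that element and not of the RNA of a gene.

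The 564 ChIP-seq libraries were made from wild-type BMDMs. Their marrow came from young male C57/BL6 mice of 6 to 8 weeks. Cells received DMSO as the vehicle, or 1 clinical kinase inhibitor from a panel of 58, for 1 h. They were then left unstimulated (UT) or received lipopolysaccharide (LPS), the bacterial ligand of TLR4, or interleukin 4 (IL-4) at 10 ng/mL for 30 min, 1 h, 2 h or 4 h. DMSO cells gave 18 libraries in 9 groups of 2 replicates, and inhibitor-treated cells gave 241 LPS, 232 IL-4 and 73 UT libraries, mostly 1 for each inhibitor, stimulus and time. The labels give the UT samples both 4 h and 0 h, and nothing says whether replicates came from separate cultures, so p-values measure the spread between libraries, which may be technical. BMDMs are a bulk population, and acetylation in fewer cells cannot be told apart from less acetylation in each cell.

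Values are normalized read counts, that is, reads counted over an element and scaled between libraries by the authors, called normalized reads here. Library totals of these values ranged from 4066894 to 12391409, with a median of 6685222, and from 5923684 to 6873668 in DMSO cells. These totals are not sequencing depths. The paper counted reads within 700 bp on either side of ATAC-seq summits, and the elements listed were 1406 to 61924 bp wide. Whether the values of wider elements cover their whole width is not stated. DMSO replicates correlated with r between 0.96 and 0.982 on the log2 scale. Marker genes were read at an element with its centre within 1 kb of their start. Wider elements that hold a start but are centred further away were not looked for. Of 6 macrophage marker genes, 3 had such an element (Spi1 with 2046 and 2118 normalized reads in UT cells, Itgam with 606 and 666, Mertk with 218 and 234). Adgre1, Cd68 and Csf1r had none by this rule, and neither had any of 5 T cell or 5 B cell marker genes. S100a8 of neutrophils and Col1a1 of fibroblasts had at most 18 in UT cells. The summed level of the 3 macrophage markers was 2930 to 2958 in UT cells, 1886 to 2006 at 30 min after LPS, 2417 to 2576 at 30 min after IL-4 and 2877 to 3277 at 4 h after LPS. Most of this sum was Spi1, which was not called after LPS, whereas Itgam (log2 -2.21 ± 0.15) and Mertk (-2.30 ± 0.22) were called lower with their largest difference at 30 min. After IL-4 Itgam was called lower too (-1.80 ± 0.10 at 4 h). S100a8 reached 18 to 35 at 4 h after LPS and Col1a1 10 to 18 at 4 h after IL-4. The part of these markers in the results at the member elements was not tested.

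In inhibitor-treated cells, 7 libraries stood apart, with a correlation under 0.75 to the median profile of the same stimulus and time over 19624 elements, against a median of 0.942 over all libraries and at least 0.921 in DMSO cells. They were PH797804 at 30 min (0.664) and 4 h (0.672) after LPS, Lenvatinib at 4 h after LPS (0.716), Losmapimod at 4 h after LPS (0.736), BMS387032 at 1 h after IL-4 (0.622, the library with the suffix b), MK2206 at 4 h after IL-4 (0.735) and Lenvatinib at 30 min after IL-4 (0.737). The 30 min LPS library of PH797804 also had the lowest total and listed 5.78% of these elements at 0, against at most 0.352% in any other library. Results that rest on these libraries are given with and without them.

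The sequences of 4 elements with large changes away from a gene start are shown as the central 300 bases of each element on the plus strand of GRCm38. Capitals mark matches, on either strand, to letters recognised by factors of the pathways. The letters were C/EBP (TTGCNNAA), AP-1 (TGANTCA), CRE (TGACGTCA) and PU.1 (GAGGAAGT). For STAT6, κB and MEF2, fixed patterns of 10 letters were searched, and these need not equal the usual consensus. The MEF2 pattern accepted a match outside its usual consensus, and counts of these motifs are counts of the patterns searched. The first lies upstream of Cebpa at chr7:35098865-35099164 and holds none of these matches, the second downstream of Cebpd at chr16:15896176-15896475, the third downstream of Klf2 at chr8:72322516-72322815 and the fourth upstream of Klf6 at chr13:5837411-5837710.
Cebpa upstream element: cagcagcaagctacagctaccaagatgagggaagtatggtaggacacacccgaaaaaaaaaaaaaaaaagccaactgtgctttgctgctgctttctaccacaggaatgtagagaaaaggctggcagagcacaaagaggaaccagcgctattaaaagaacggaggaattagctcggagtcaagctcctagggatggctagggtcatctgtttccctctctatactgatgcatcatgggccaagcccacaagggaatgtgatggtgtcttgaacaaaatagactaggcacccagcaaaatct
Cebpd downstream element: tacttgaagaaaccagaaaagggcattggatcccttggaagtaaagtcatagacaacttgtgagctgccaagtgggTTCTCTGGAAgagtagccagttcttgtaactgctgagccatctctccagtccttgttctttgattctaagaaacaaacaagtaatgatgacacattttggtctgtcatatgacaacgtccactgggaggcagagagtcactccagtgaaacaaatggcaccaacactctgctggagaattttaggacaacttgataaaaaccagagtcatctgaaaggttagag
Klf2 downstream element: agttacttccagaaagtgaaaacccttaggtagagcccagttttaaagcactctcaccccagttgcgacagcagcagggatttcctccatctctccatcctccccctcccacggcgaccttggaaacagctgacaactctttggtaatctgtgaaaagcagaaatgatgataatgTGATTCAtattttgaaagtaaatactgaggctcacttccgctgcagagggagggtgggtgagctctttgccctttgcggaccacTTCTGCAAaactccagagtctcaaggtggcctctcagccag
Klf6 upstream element: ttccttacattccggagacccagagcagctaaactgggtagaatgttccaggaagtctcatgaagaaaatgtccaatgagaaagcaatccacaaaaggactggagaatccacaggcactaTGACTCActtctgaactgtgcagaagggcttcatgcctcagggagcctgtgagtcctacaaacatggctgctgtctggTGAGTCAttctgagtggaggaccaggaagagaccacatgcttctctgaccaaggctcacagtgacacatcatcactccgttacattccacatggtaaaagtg

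The Cebpd window held a STAT6 match at base 77, the Klf2 window an AP-1 match at base 176 and a C/EBP match at base 260, and the Klf6 window AP-1 matches at bases 121 and 199, counted from 1 at the 5′ end. Among the central windows of all 40 elements, AP-1 letters were found in 11 (27.5%), C/EBP letters in 7 (17.5%), and STAT6 letters in 6 (15.0%). Over the windows of 59187 elements these shares were 20.2%, 14.7% and 9.21%. GC boxes and MEF2 letters were each found in 2 windows (5.0%, against 10.3% and 5.07% of all windows), PU.1 letters in 1 (2.5%, against 9.11%), and κB and CRE letters in 0 (against 2.22% and 0.848%). Matches to different motifs can overlap in part, and a match is a description of the sequence and not a bound site.

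For 3 genes whose start elements were called after LPS, of which Cebpa and Klf2 fell and Cebpb rose, the 250 bases before the RefSeq start (GRCm38.p6, all on the plus strand) are shown. They are chr7:35119043-35119292 for Cebpa, chr2:167688665-167688914 for Cebpb and chr8:72318812-72319061 for Klf2.
Cebpa promoter: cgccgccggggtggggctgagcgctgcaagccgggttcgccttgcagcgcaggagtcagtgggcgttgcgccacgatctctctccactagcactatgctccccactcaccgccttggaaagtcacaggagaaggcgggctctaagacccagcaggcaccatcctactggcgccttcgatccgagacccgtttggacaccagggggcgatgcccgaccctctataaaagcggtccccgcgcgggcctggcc
Cebpb promoter: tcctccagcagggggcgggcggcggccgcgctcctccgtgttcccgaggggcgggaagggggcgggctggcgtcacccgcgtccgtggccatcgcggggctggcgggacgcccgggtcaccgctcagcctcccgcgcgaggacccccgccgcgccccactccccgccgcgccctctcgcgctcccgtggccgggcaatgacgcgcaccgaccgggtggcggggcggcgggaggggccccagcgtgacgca
Klf2 promoter: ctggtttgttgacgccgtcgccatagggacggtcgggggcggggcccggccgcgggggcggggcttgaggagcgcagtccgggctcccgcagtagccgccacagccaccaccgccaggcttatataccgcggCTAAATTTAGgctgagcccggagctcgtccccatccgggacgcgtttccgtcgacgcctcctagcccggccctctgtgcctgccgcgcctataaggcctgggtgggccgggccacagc

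The capitals in the Klf2 promoter mark a MEF2 match at base 133, which occurs in 3.20% of 32851 RefSeq promoters of this annotation. GC boxes (GGGCGGG, not capitalised) were found at bases 37 and 56 of the Klf2 promoter and at bases 13, 49 and 60 of the Cebpb promoter, and in 23.4% of all promoters. The promoter table held 5 of the 8 genes, and Cebpd, Cebpe and Klf10 were not among them.

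Before stimulation, the members ranged from the strongest elements of the table to near background. Per kb of element, the start element of Klf6 held 233 to 285 normalized reads, more than 99.1% of all elements, and that of Cebpd 200 to 207 (97.6%). The start elements of Klf10 (119 to 152) and Cebpa (130 to 141) followed, both above 92.4% of all elements. Those of Klf2 (78.5 to 79.9), Klf4 (77.5 to 79.5) and Cebpb (75.1 to 75.5) lay close together, and the values of Klf2 and Klf4 overlapped. The start element of Cebpe was the lowest of the 8, with 46.0 to 47.9 per kb (68.3%). The weakest member was an element 2503 bp from the start of Gm29776, near Cebpe, with 0.62 to 1.24 per kb.

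The LPS course in DMSO cells asked which elements respond to TLR4. An element was called where the moderated F-test of limma over the 4 times against UT gave a Benjamini-Hochberg adjusted p under 0.01 and the log2 difference passed 1 in either direction at 1 or more times, with log2 differences taken on log2(value + 5) and given with their standard error (SE, n = 2 libraries per group). After LPS, 22 of 38 member elements tested were called (57.9%), against 53.5% of all 50697 elements tested. Of these, 8 rose (21.1%, against 29.0% of all elements) and 14 fell (36.8%, against 24.6%) at the time of their largest difference. Every gene but Klf4 had a called element. The median size of the largest difference was 1.12 over the members and 1.19 over all elements. Elements are named below by their gene and by the distance of their centre from its start.

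Cebpa had the deepest loss. Its upstream element (20279 bp from the start, chr7:35098205-35099824, intergenic) held 207 and 193 normalized reads in the UT libraries, 13 and 27 at 30 min after LPS, 21 and 27 at 1 h, 26 and 15 at 2 h, and 21 and 18 at 4 h. All 8 LPS libraries lay below both UT libraries, and the element was at its low level by the first time point. The log2 difference was -3.09 ± 0.31 at 30 min and -3.07 ± 0.31 at 4 h (F-test adjusted p = 3.98e-11). At the start of Cebpa, the element (chr7:35117382-35120133) went from 358 and 388 to 89 and 105 at 30 min, 134 and 188 at 1 h, 43 and 97 at 2 h, and 54 and 66 at 4 h, again without overlap with UT. Its log2 difference was -1.89 ± 0.24 at 30 min and -2.54 ± 0.24 at 4 h (adjusted p = 1.87e-11).

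Another Cebpa element, 20768 bp downstream in an intron shared by Gm35665 and Gm35724 and over the start of the former (chr7:35139284-35140838), followed the same course, from 93 and 87 in UT to 19 and 15 at 4 h (log2 -2.12 ± 0.30). The elements 12475 bp upstream (log2 -1.34 ± 0.30 at 4 h) and 5674 bp downstream (log2 -1.43 ± 0.36 at 30 min) also fell. Thus 5 of the 7 Cebpa elements fell and none rose. Of the other 2, the element 8362 bp downstream (chr7:35126506-35128804) held 93 and 80 in UT and 151 and 149 at 1 h after LPS (log2 0.76 ± 0.21, not called), and the element 13891 bp downstream had a largest difference of 0.58 ± 0.39.

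Cebpb moved the other way, and 3 of its 4 elements rose while the fourth was too low to be tested. Its start element (chr2:167688119-167693841, which also holds the start of A530013C23Rik) held 432 and 430 in UT, 569 and 615 at 30 min, 810 and 861 at 1 h, 662 and 632 at 2 h, and 990 and 905 at 4 h after LPS. Every LPS library lay above both UT libraries, with maxima at 1 h and 4 h and a dip at 2 h. The log2 difference was 0.95 ± 0.10 at 1 h and 1.13 ± 0.10 at 4 h (adjusted p = 4.12e-11). This call needs the log2 threshold of 1 and was lost with quantile normalization (0.95) and with equal library totals (0.98).

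The flanking Cebpb elements were highest at 4 h. The element 3591 bp upstream (chr2:167684524-167686125, intergenic) held 31 and 19 in UT, 48 and 34 at 30 min, 45 and 69 at 1 h, 51 and 38 at 2 h, and 111 and 86 at 4 h. All LPS libraries lay above UT, with a log2 difference of 1.05 ± 0.28 at 1 h and 1.81 ± 0.28 at 4 h (adjusted p = 2.27e-05). The element 9163 bp downstream (chr2:167697211-167698946, intergenic, chosen after its values were seen) held 194 and 166 in UT, 135 and 172 at 30 min, 220 and 210 at 1 h, 301 and 331 at 2 h, and 428 and 390 at 4 h. It overlapped UT at 30 min and lay above it from 1 h on, with a log2 difference of 1.16 ± 0.15 at 4 h (adjusted p = 1.03e-09).

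Cebpd lost and regained acetylation within the course. Its start element (chr16:15885944-15891545) held 1121 and 1157 in UT, 388 and 357 at 30 min after LPS, 659 and 799 at 1 h, 1003 and 940 at 2 h, and 979 and 960 at 4 h. The 30 min libraries were the lowest, and the values at 2 h and 4 h came near UT without reaching it. The log2 difference was -1.60 ± 0.10 at 30 min and -0.23 ± 0.10 at 4 h (F-test adjusted p = 2.01e-15). Tested directly, the 4 h libraries exceeded the 30 min libraries by 1.37 ± 0.10 (adjusted p = 1.74e-13). The low element 9039 bp downstream (chr16:15895512-15897139, in an intron of Spidr) held 16 and 15 in UT, 41 and 39 at 2 h and 43 and 31 at 4 h (log2 1.13 ± 0.33 at 2 h, adjusted p = 0.000477). That call was lost with quantile normalization (0.94).

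Cebpe changed least among the C/EBP genes. Its start element (chr14:54711369-54715082) held 178 and 171 in UT and 93 and 87 at 1 h after LPS, a log2 difference of -0.92 ± 0.22 that did not pass the threshold (adjusted p = 0.00366). The called element of this gene, 1920 bp from the start of Slc7a8 in a coding exon of that gene (chr14:54734937-54736533), held 63 and 69 in UT and 142 and 145 at 30 min (log2 1.07 ± 0.23), and 57 and 74 at 1 h. It was nearer to the amino acid transporter gene than to Cebpe.

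**Figure D1:**
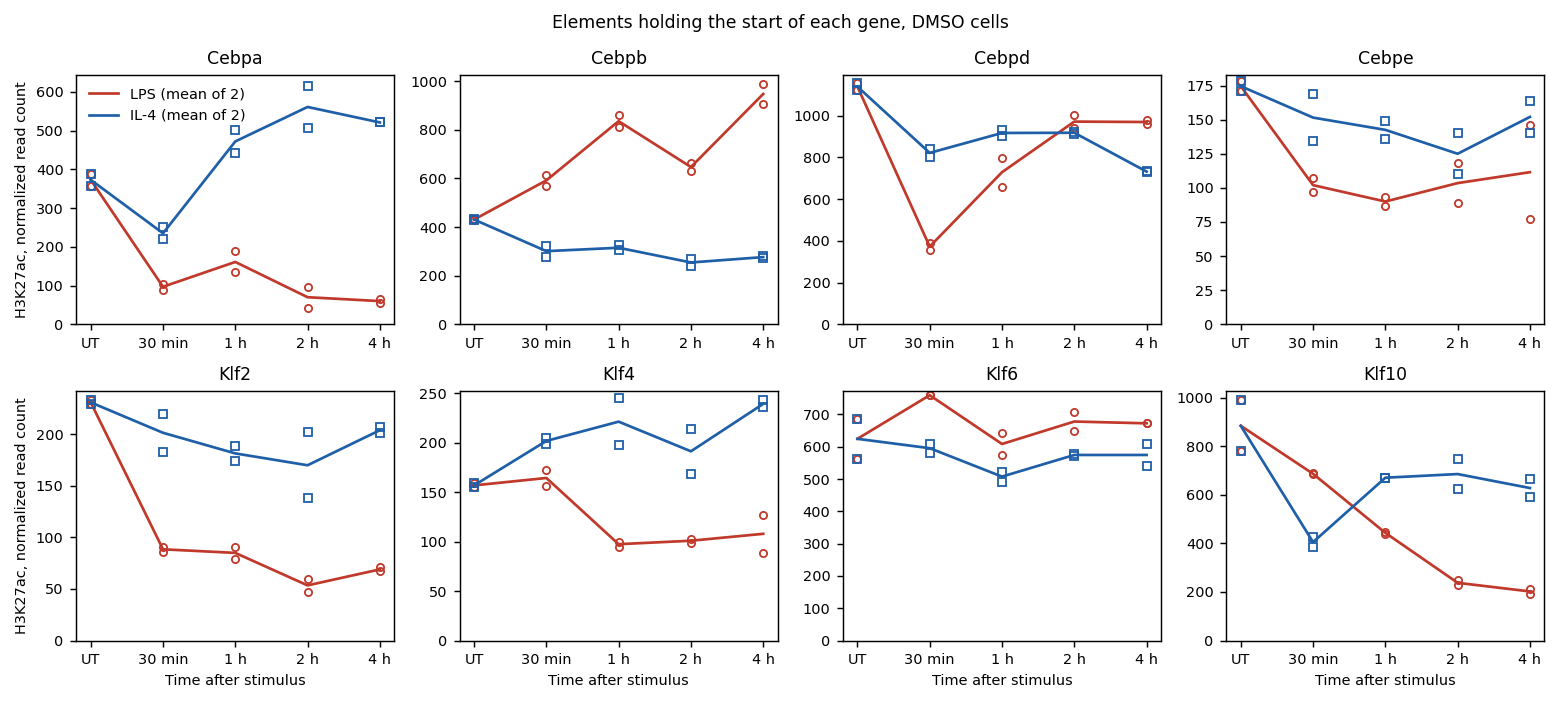
H3K27ac at the element holding the transcription start of each of the 8 genes in DMSO cells, as normalized read count (y axis, from 0) against time after stimulus (x axis, UT to 4 h), with 1 point per library, LPS as red circles, IL-4 as blue squares and lines through the mean of 2 libraries. Cebpa and Cebpb diverged in opposite directions, with 54 and 66 against 521 and 521 at 4 h for Cebpa and 990 and 905 against 271 and 282 for Cebpb.

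Klf2 fell after LPS at its start and just downstream. The start element (chr8:72317015-72319930) held 233 and 229 in UT, 86 and 91 at 30 min, 91 and 79 at 1 h, 47 and 60 at 2 h, and 71 and 67 at 4 h. No LPS library overlapped UT, and the lowest values were at 2 h (log2 -2.02 ± 0.21, adjusted p = 1.31e-09). The element 3603 bp downstream (chr8:72321730-72323600, intergenic) held 354 and 327 in UT, 178 and 234 at 30 min, 166 and 150 at 1 h, 49 and 39 at 2 h, and 84 and 84 at 4 h. It decreased in steps, by 0.72 ± 0.19 at 30 min and by 2.82 ± 0.19 at 2 h on the log2 scale (adjusted p = 9.3e-15).

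Another Klf2 element turned in direction. The element 15191 bp upstream (chr8:72303093-72304650, chosen after its values were seen) held 183 and 208 in UT, 96 and 91 at 30 min, 215 and 205 at 1 h, 242 and 249 at 2 h, and 343 and 352 at 4 h after LPS. Its log2 difference was -1.02 ± 0.15 at 30 min and 0.82 ± 0.15 at 4 h, and 4 h exceeded 30 min by 1.84 ± 0.15 (adjusted p = 2.92e-12). The call itself, counted as lower, was lost with quantile normalization (-0.91), without LPS 30 min replicate 2 (-0.99) and without UT replicate 2 (-0.93).

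Klf10 fell steadily at its start. The start element (chr15:38296676-38303194) held 779 and 988 in UT, 688 and 684 at 30 min, 438 and 448 at 1 h, 227 and 248 at 2 h, and 190 and 214 at 4 h after LPS. Each later time lay below the one before without overlap, and the log2 difference at 4 h was -2.09 ± 0.13 (adjusted p = 3.49e-17). All 3 other Klf10 elements were called as well.

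The Klf10 element 14046 bp downstream (chr15:38285097-38286612, intergenic, chosen after its values were seen) fell first and rose later. It held 208 and 213 in UT, 69 and 55 at 30 min, 141 and 130 at 1 h, 487 and 448 at 2 h, and 359 and 263 at 4 h. The log2 difference was -1.69 ± 0.17 at 30 min and 1.13 ± 0.17 at 2 h (adjusted p = 7.35e-16), while the start element of the same gene was at 227 and 248 at 2 h. The element 10729 bp downstream (chr15:38288329-38290014) fell from 186 and 167 to 57 and 54 at 4 h (log2 -1.58 ± 0.22), and that 15823 bp downstream had a log2 difference of -1.44 ± 0.33 at 30 min.

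Klf6 gained acetylation at different elements at different times, while its start element (chr13:5859921-5862328) was not called, with 562 and 687 in UT and 759 and 760 at 30 min. The element 23929 bp upstream (chr13:5836696-5838425, intergenic, chosen after its values were seen) held 100 and 112 in UT, 381 and 441 at 30 min, 221 and 210 at 1 h, 126 and 144 at 2 h, and 138 and 145 at 4 h. The peak was at 30 min (log2 1.90 ± 0.16, adjusted p = 7.21e-12) and values stayed just above UT to 4 h. The element 18408 bp upstream (chr13:5842274-5843888) had the same course, from 44 and 56 to 185 and 222 at 30 min (log2 1.93 ± 0.20).

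The element over a coding exon of Klf6, 3575 bp downstream of its start (chr13:5862930-5867198, chosen after its values were seen), rose more slowly. It held 766 and 760 in UT, 1079 and 1139 at 30 min, 1358 and 1305 at 1 h, 1621 and 1516 at 2 h, and 1819 and 1503 at 4 h. All LPS libraries exceeded UT, and the log2 difference was 0.54 ± 0.09 at 30 min and 1.11 ± 0.09 at 4 h (adjusted p = 5.96e-13), a call lost with quantile normalization (0.82) and with equal library totals (0.96). The element 15912 bp upstream (chr13:5844507-5846647) held 439 and 439 in UT, 586 and 729 at 30 min and 187 and 191 at 2 h, a log2 difference of 0.57 ± 0.14 followed by -1.19 ± 0.14.

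Klf4 had no called element after LPS. Its start element (chr4:55531721-55533720, also the start of Gm12506) held 155 and 159 in UT, 173 and 156 at 30 min, 100 and 95 at 1 h, 99 and 103 at 2 h, and 89 and 127 at 4 h. From 1 h on its libraries lay below UT, with a log2 difference of -0.66 ± 0.19 at 1 h, short of the threshold.

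The IL-4 course asked which elements respond to the STAT6-activating cytokine, with the same test and the same UT libraries as the LPS course. After IL-4, 10 of 38 member elements tested were called (26.3%), against 24.7% of all 47018 elements. Of these, 2 rose (5.26%, against 13.6% of all elements) and 8 fell (21.1%, against 11.0%). The median size of the largest difference was 0.71 over the members and 0.68 over all elements. With a log2 threshold of 0.5, 21 members were called, against 41.8% of all elements.

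The 2 elements that rose belonged to Cebpd and Klf4. The downstream Cebpd element in the Spidr intron held 16 and 15 in UT, 61 and 66 at 30 min, 61 and 77 at 1 h, 89 and 93 at 2 h, and 94 and 79 at 4 h after IL-4. All IL-4 libraries lay far above UT from the first time on, with log2 1.74 ± 0.23 at 30 min and 2.23 ± 0.23 at 2 h (adjusted p = 1.15e-11). Of the 6 member elements with STAT6 letters in their central window, it alone was called after IL-4. The Klf4 element that rose held none of these letters, and their part in the rise was not tested. The start element of Cebpd itself, with 1121 and 1157 in UT, held 841 and 802 at 30 min, 933 and 901 at 1 h, 913 and 923 at 2 h, and 728 and 736 at 4 h (log2 -0.63 ± 0.08, not called).

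The other was the element over the coding exon of Klf4, 2107 bp downstream of its start (chr4:55529522-55531214). It held 51 and 47 in UT, 58 and 75 at 30 min, 109 and 90 at 1 h, 127 and 119 at 2 h, and 118 and 148 at 4 h after IL-4. Its rise was gradual, with log2 0.40 ± 0.20 at 30 min and 1.35 ± 0.20 at 4 h (adjusted p = 6.18e-08). At its start Klf4 held 243 and 236 at 4 h against 155 and 159 in UT, a log2 difference of 0.59 ± 0.14 that was not called.

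Cebpa dipped and then exceeded UT after IL-4. Its start element held 251 and 219 at 30 min, 502 and 442 at 1 h, 616 and 506 at 2 h, and 521 and 521 at 4 h, against 358 and 388 in UT. The log2 difference was -0.66 ± 0.11 at 30 min and 0.58 ± 0.11 at 2 h, so the element was not called although the F-test gave an adjusted p of 1.09e-13, and 4 h exceeded 30 min by 1.14 ± 0.11 (adjusted p = 7.91e-12). The upstream element had the same shape, with 120 and 129 at 30 min and 271 and 248 at 4 h against 207 and 193 in UT, and 4 h exceeded 30 min by 1.03 ± 0.14. The element 8362 bp downstream was called lower (log2 -1.02 ± 0.23 at 2 h, adjusted p = 0.00496), a call lost with quantile normalization and without any of 4 single libraries.

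Cebpb, Klf2, Klf6 and Klf10 supplied the other losses after IL-4. The upstream Cebpb element went from 31 and 19 in UT to 7 and 4 at 2 h and 2 and 6 at 4 h (log2 -1.74 ± 0.40, adjusted p = 0.00133, lost without UT replicate 1). The start element of Cebpb held 242 and 267 at 2 h against 432 and 430 (log2 -0.75 ± 0.12, not called). At Klf10, the start element fell at 30 min to 424 and 386 from 779 and 988 (log2 -1.11 ± 0.10, adjusted p = 7.91e-12) and held 670 and 670 at 1 h, and 4 h exceeded 30 min by 0.62 ± 0.10. That call was lost without UT replicate 2 (-0.94). The Klf10 element 10729 bp downstream fell furthest, from 186 and 167 to 38 and 43 at 2 h (log2 -2.00 ± 0.21, adjusted p = 1.4e-10), and the one 14046 bp downstream fell to 52 and 98 (log2 -1.49 ± 0.19).

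The downstream Klf2 element held 172 and 158 at 2 h after IL-4, against 354 and 327 in UT (log2 -1.02 ± 0.13, adjusted p = 1.2e-07). This call was lost without IL-4 2 h replicate 2 (-0.96) and without UT replicate 1 (-0.97). At its start Klf2 held 202 and 138 at 2 h against 233 and 229, which was not called. The Klf6 element 13762 bp downstream (chr13:5874069-5876433, chosen after its values were seen) held 258 and 282 in UT, 393 and 468 at 30 min, 179 and 252 at 1 h, 124 and 135 at 2 h, and 125 and 119 at 4 h after IL-4. It was higher at 30 min and then fell, and 4 h lay below 30 min by a log2 difference of -1.77 ± 0.14 (adjusted p = 4.51e-14). The element 15912 bp upstream of Klf6 fell to 190 and 191 at 4 h (log2 -1.18 ± 0.12).

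**Figure D2:**
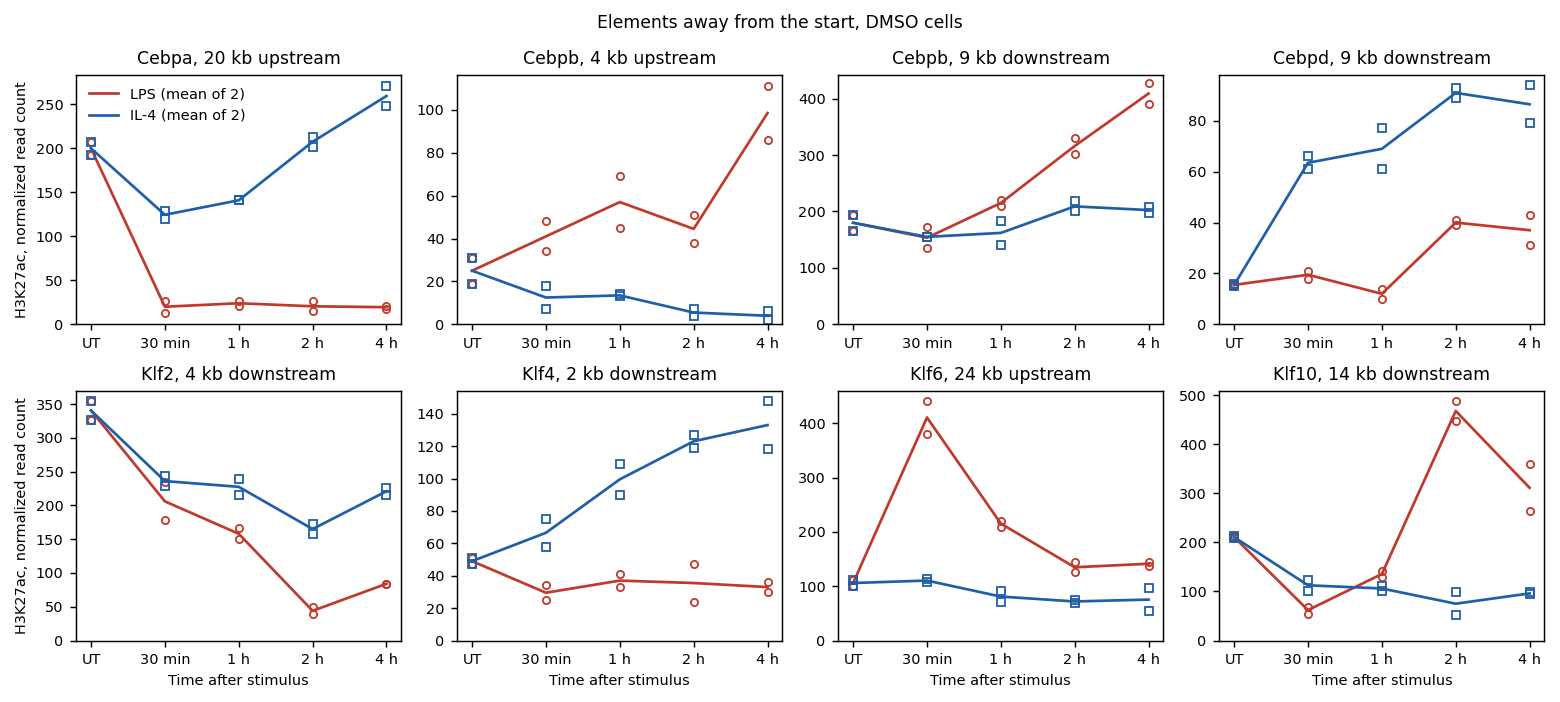
H3K27ac at 8 elements away from the start of their gene in DMSO cells, as normalized read count (y axis, from 0) against time after stimulus (x axis), with 1 point per library, LPS as red circles, IL-4 as blue squares and lines through the mean of 2 libraries. The downstream Cebpd element reached 89 and 93 after IL-4 from 16 and 15 in UT, and the upstream Klf6 element reached 381 and 441 after LPS at 30 min from 100 and 112.

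**Figure D3:**
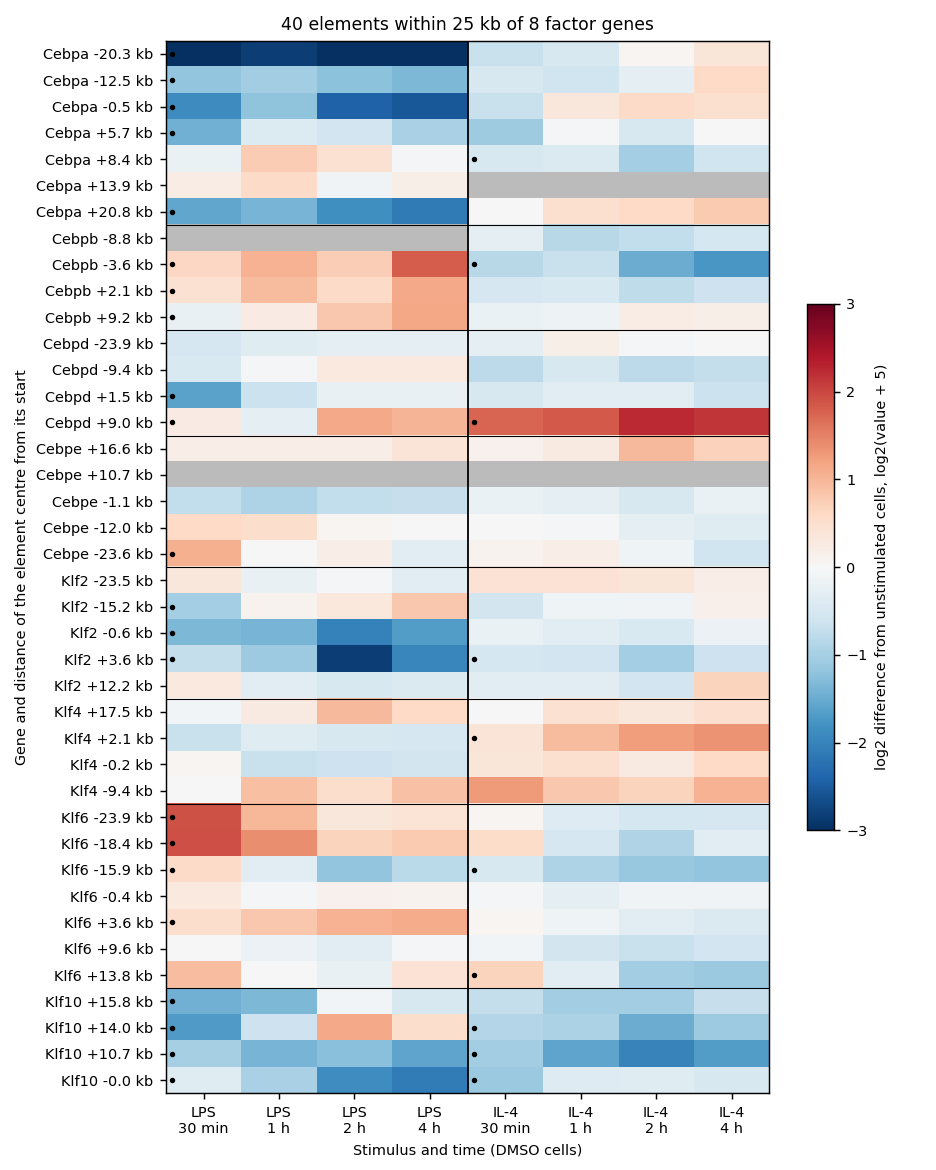
The log2 difference from unstimulated cells, on log2(value + 5), of the 40 elements (rows, by gene and kb from the start to the element's centre) at 4 times after LPS and 4 times after IL-4 (columns) in DMSO cells, with blue for lower and red for higher. A black dot at the left of a course marks an element called over that course, 22 after LPS and 10 after IL-4, and grey marks elements that were not tested.

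The difference between stimuli was tested directly in all 18 DMSO libraries, as LPS minus IL-4 at the same time. Of 38 members, 21 were called (55.3%), against 58.4% of all 50587 elements. LPS was higher at 10 (26.3%, against 29.2% of all elements) and lower at 11 (28.9%, against 29.2%), so the members were split as the table was. At 4 h the largest gaps were at the upstream element of Cebpa (-3.43 ± 0.24), its start element (-3.02 ± 0.20) and the element 20768 bp downstream (-2.90 ± 0.24) in favour of IL-4, and at the upstream element of Cebpb (3.55 ± 0.35) in favour of LPS, with 1.76 ± 0.11 at the start element of Cebpb (adjusted p = 4.25e-23). Among the KLF genes, LPS was lower at the start element of Klf2 (-1.57 ± 0.18 at 2 h) and at both named elements of Klf4 (-1.14 ± 0.17 at 1 h at the start, -1.86 ± 0.26 at 4 h over the coding exon), and higher at the coding exon element of Klf6 (1.54 ± 0.09 at 4 h).

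The order of the stimuli changed with time at 2 start elements. At Klf10, LPS exceeded IL-4 by 0.75 ± 0.12 at 30 min and lay below it by a log2 difference of -1.61 ± 0.12 at 4 h. At Cebpd, LPS lay below IL-4 at 30 min (-1.13 ± 0.09) and above it at 4 h (0.40 ± 0.09). The lines of the stimuli cross in the plot of the start elements for both genes.

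The responses were also followed in inhibitor-treated cells, in libraries that the DMSO tests did not use, with each inhibitor compared with its own UT libraries over the 58 inhibitors. An element was called at a limma adjusted p under 0.01 and a log2 difference over 0.5 in either direction at 1 or more times. After LPS, 28 of 40 members were called (70.0%, against 63.8% of all 59163 elements), 12 higher and 16 lower, and after IL-4 17 of 40 (42.5%, against 32.2% of all 59150 elements), 6 higher and 11 lower. Without the 7 libraries that stood apart these counts were also 28 and 17. All 22 elements called after LPS in DMSO cells had the same sign in inhibitor-treated cells at the time of their largest DMSO difference and were called there, and all 22 differences were smaller. Of the 10 called after IL-4, all had the same sign, 8 were called at that time and 9 were smaller. The 2 not called were the upstream Cebpb element at 4 h (-0.32, against -1.74 in DMSO cells) and the downstream Klf2 element at 2 h (-0.47, against -1.02). Elements and times were picked by their DMSO differences, so the smaller sizes cannot be read as an effect of the inhibitors. The same counts were not taken over all called elements.

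At the upstream Cebpa element, the values at 4 h after LPS were 10 at the lowest, 35 at the median and 92 at the highest over 55 inhibitors, against 106, 240 and 331 in their UT libraries. All 55 inhibitors lay below their own UT value at 4 h, and all 58 did at 30 min. At the start element of Cebpa the values at 4 h were 35, 87 and 158, again below UT in 55 of 55, with a median log2 change of -2.12. After IL-4 the same element was above its own UT value at 4 h in 52 of 55 inhibitors, with 350 at the lowest, 548 at the median and 898 at the highest.

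At the start element of Cebpb, values at 4 h after LPS ran from 345 over 862 to 1460, above UT in 53 of 55 inhibitors, and the lowest was Losmapimod, in a library that stood apart. After IL-4 at 2 h they ran from 224 over 328 to 544, below UT in 54 of 56. The early loss at Cebpd was present in every inhibitor: its start element held 188 to 595 at 30 min after LPS, with a median of 351, against 676 to 1100 in UT, and 58 of 58 lay below their own UT value. By 4 h, 24 of 55 inhibitors were above and 31 below, and over 119 LPS libraries 4 h exceeded 30 min by 1.22 ± 0.06.

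The IL-4 gain at the downstream Cebpd element was seen in 55 of 58 inhibitors at 30 min, with a median of 76 and a range of 36 to 151. The element over the Klf4 coding exon was above UT in 57 of 57 inhibitors at 1 h after IL-4, where it ran from 65 over 131 to 170, and in 51 of 55 at 4 h. The start element of Klf10 lay below UT in 55 of 55 inhibitors at 4 h after LPS (183, 272 and 406 at the lowest, median and highest) and in 58 of 58 at 30 min after IL-4 (286, 462 and 613).

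At the downstream Klf2 element, values at 2 h after LPS were 32 at the lowest, 75 at the median and 142 at the highest, below UT in 55 of 55 inhibitors. The Klf6 coding exon element was above UT in 55 of 55 inhibitors at 4 h, with 776, 1110 and 1760. Its lowest value, 776, was Losmapimod, in a library that stood apart. The upstream Klf6 element was above UT in 54 of 58 at 30 min, with 71, 250 and 529. The early dip and later rise of the Klf10 element 14046 bp downstream recurred, with 58 of 58 inhibitors below UT at 30 min and 50 of 55 above it at 2 h after LPS.

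**Figure D4:**
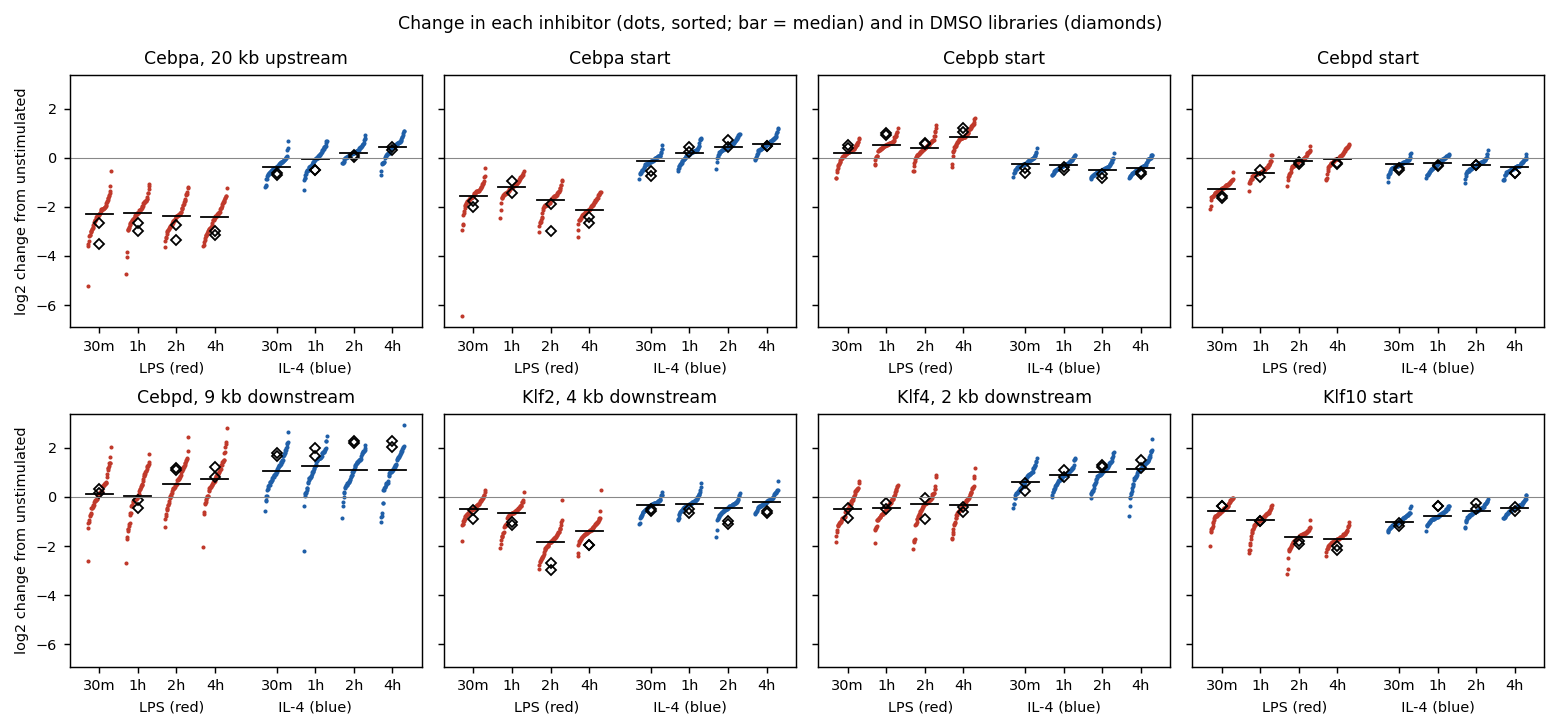
The log2 change of each inhibitor from its own unstimulated library, on log2(value + 5) (y axis), at 8 elements and 4 times after LPS (red) and IL-4 (blue), with inhibitors as dots sorted by value, their median as a bar and the DMSO libraries as diamonds. All dots lie below 0 after LPS at both Cebpa elements, and the Cebpd start element has a median of -1.26 at 30 min and -0.04 at 4 h.

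The level of each inhibitor was then compared with DMSO, with 1 difference per inhibitor over UT and all times of a stimulus, called at an adjusted p under 0.05 and a log2 difference over 0.5 in either direction. After LPS, 592 of 2320 pairs of member element and inhibitor were higher (25.5%, against 32.3% of all pairs) and 224 lower (9.66%, against 4.04%). After IL-4, 620 were higher (26.7%, against 36.2%) and 114 lower (4.91%, against 3.03%). These differences moved with the level of an element. With all elements cut into 5 equal classes by DMSO level, the median difference after LPS was 1.28 in the lowest class and -0.18 in the highest. Among members, the weak element near Gm29776 was higher in 50 inhibitors, while the strong Klf6 elements 9625 bp downstream and over the coding exon were lower in 43 and 37. The part of this shift with level in the calls was not tested.

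Against the mean of all inhibitors, which removes a shift common to all of them, 15 member pairs were higher (0.647%, against 1.26%) and 30 lower (1.29%, against 1.52%) after LPS, and 36 were higher (1.55%, against 2.70%) and 28 lower (1.21%, against 1.28%) after IL-4. At the upstream Cebpa element, 5 inhibitors were called lower after LPS and 6 after IL-4. They included Filgotinib (log2 -1.17, and -0.57 against DMSO) and MK2206 (-1.14, and -0.54 against DMSO) after LPS, and Lenvatinib (-0.78, and -0.52 against DMSO), Omipalisib (-0.73, and -0.46) and XL413 (-0.71, and -0.45) after IL-4. Against DMSO, Lenvatinib was the only 1 of these 11 calls that was also called. All 11 calls were of compounds in the first 2 of the 6 runs of neighbouring columns in the table, which hold 10 compounds each. The column run was a factor in the family tests alone, and its part in these calls was not tested.

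At start elements, Talmapimod was higher at Cebpd after LPS (0.62, limma adjusted p = 0.000173), where its difference from DMSO was 0.33 and not called. BGT226 was higher at Cebpb after IL-4 (0.52, limma adjusted p = 1.07e-07) and was called against DMSO as well (0.77). Each of these rests on about 1 library per time.

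PH797804 had 7 of the 45 member calls after LPS, among them the start elements of Cebpa (-0.84) and Klf4 (-0.88) and the downstream Cebpb element (-1.32). Without the libraries that stood apart, all 7 were lost, and the values became 0.21, -0.57 and -0.45. The call of Losmapimod at the start element of Cebpe (0.53) was lost too. After IL-4, 5 calls were lost, those of Lenvatinib at the elements of Cebpd 9376 bp and of Klf6 18408 bp upstream, and those of MK2206 at the Cebpa element 13891 bp downstream, the upstream Cebpb element and the Klf6 element 13762 bp downstream. The IL-4 calls of Lenvatinib (-0.68) and MK2206 (-0.61) at the upstream Cebpa element were kept.

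Inhibitors were also grouped by designated target into 4 families, 6 of JAK, 5 of MEK or ERK, 4 of p38 and 9 of PI3K, AKT or mTOR, with inhibitors as replicates and the others as reference. No member element was called at a limma adjusted p under 0.05 in any family after LPS (0.00507% of all pairs of element and family), after IL-4 (0.0237%) or without stimulus (0.231%). At an unadjusted p under 0.05 there were 20, 7 and 15 of 160 pairs (12.5%, 4.38% and 9.38%), against 14.6%, 5.77% and 11.0% of all pairs. JAK inhibitors differed from the others by -0.02 ± 0.11 at the downstream Cebpd element and by 0.06 ± 0.08 at the Klf4 coding exon element after IL-4, the elements that rose with this cytokine.

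After LPS, the member nearest to a call was the downstream Cebpb element in the p38 family (-0.41 ± 0.14, limma adjusted p = 0.0882). There, DMSO cells rose to 428 and 390 at 4 h, VX702 to 434, Talmapimod to 264, PH797804 to 228 and Losmapimod to 197. PH797804 and Losmapimod were thus the low ones of the 4, and their 4 h libraries both stood apart. Without Talmapimod, 13 members were called, 9 lower and 4 higher of 40, against 28.0% of all elements. The downstream Cebpb element was then at -0.68 ± 0.15 (limma adjusted p = 0.00229). Without VX702 that element alone of the 40 was called (-0.59 ± 0.15), against 1.52% of all elements. When the 7 libraries that stood apart were also left out, the start element of Klf4 alone was called without Talmapimod, against 0.401% of all elements. The downstream Cebpb element was then at -0.25 ± 0.12 (limma adjusted p = 0.161), and over all 4 compounds it was at -0.10 ± 0.10 (limma adjusted p = 0.623).

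**Figure D5:**
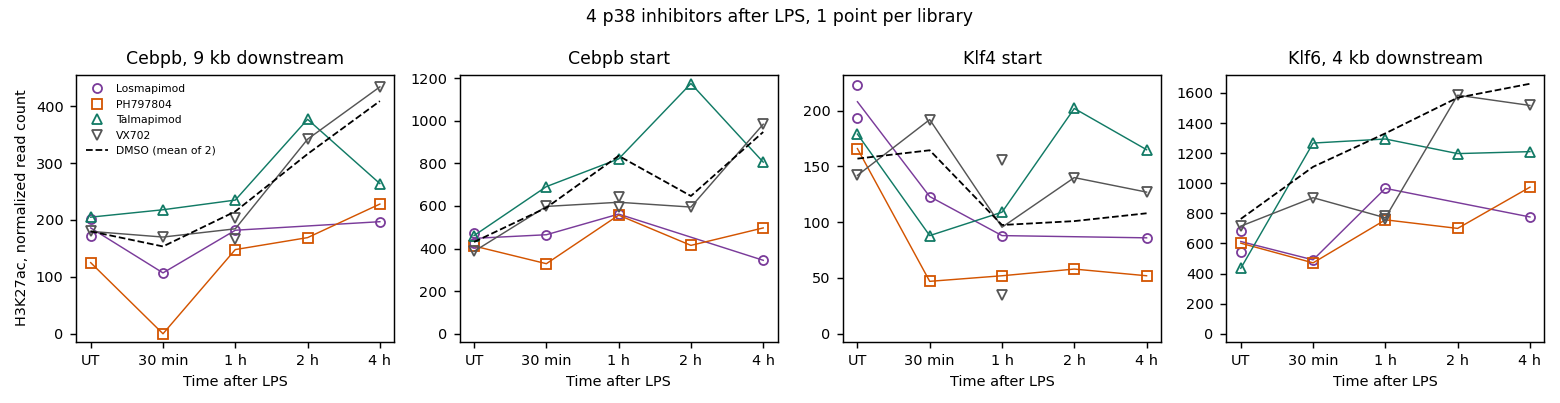
Normalized read count (y axis) at 4 elements against time after LPS (x axis) in cells treated with 1 of 4 p38 inhibitors, with 1 point per library, lines through the means and the DMSO mean of 2 libraries dashed. At the downstream Cebpb element PH797804 is at 0 at 30 min, in the library that lists many elements at 0, and at 228 at 4 h, where DMSO cells are at 428 and 390.

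The other genes of both families were read at an element with its centre within 1 kb of their start. Of 15 genes, 9 had one, and Klf1, Klf7, Klf12, Klf14, Klf15 and Klf17 had none by this rule. After LPS, 1 of 9 rose and 3 fell, and among all elements at gene starts 13.5% rose and 15.6% fell. On the log2 scale, Klf5 rose by 1.79 from 3 and 7 normalized reads in UT, while Cebpg (-1.52), Klf9 (-1.31) and Klf11 (-1.78) fell. After IL-4, none of 8 tested rose and Klf11 (-1.06) fell, against 4.63% and 2.00% of all elements at gene starts. Klf13 had the highest UT level of this list, with 712 and 772.

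Among 16 genes known as targets of C/EBP or KLF factors, 11 had a start element by the same rule. After LPS, 4 rose and 5 fell, against 13.5% and 15.6% of all elements at gene starts. Those that rose (log2 differences in parentheses) were Lcn2 (5.13), an iron-sequestering lipocalin, the cytokine Il6 (4.20), the receptor Csf3r (1.35) and the scavenger receptor Msr1 (1.17). In UT cells Lcn2 held 6 and 14 normalized reads, Il6 30 and 31, and Msr1 37 and 43. Those that fell were Thbd (-2.34) and S1pr1 (-1.50), known KLF2 targets in endothelial cells, the lysozyme gene Lyz2 (-2.29), the mannose receptor Mrc1 (-1.97) and Arg1 (-1.52). After IL-4, 2 rose and 1 fell, against 4.63% and 2.00% of all elements at gene starts. Arg1, which encodes arginase 1, rose by 2.38 at 2 h, and Thbd fell by 1.16 at 4 h. Il6 rose by 1.24 at 30 min and was at 0.29 at 2 h and 0.67 at 4 h. The list was chosen with earlier results of these data known, and the values are given as a description.

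Over the 9 DMSO group means on the log2 scale, the start elements of other genes most like the members were found by Pearson correlation among 11160 start elements, a description over 9 points that share their UT libraries. Nearest to Cebpa were Tnrc6c (r = 0.990), Hmgn2 (0.988) and Timp2 (0.985), and nearest to Klf2 were Mvb12b (0.994), Aatk (0.989) and Rassf3 (0.989). Cebpb was most like Tnfrsf1b (0.984), which encodes a TNF receptor, Sh3bp4 (0.979) and Nsun7 (0.971). For Cebpd they were Eif4g3 (0.958), Maf (0.952) and Mms19 (0.943), and for Klf10 they were Cacna1a (0.978), Gse1 (0.966) and Sik1 (0.963). Klf4 was most like Dapp1 (0.976), Cebpe like Pcyt1b (0.985) and Klf6, which changed least at its start, like Meig1 (0.953).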

How the data were processed

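The authors trimmed reads to 51 bases, mapped them to mm10 with ShortStack (the labels also name Bowtie and SAMtools), counted them over elements around ATAC-seq summits and scaled each library. The deposited values are these normalized read counts rounded to whole numbers, handled here as a score, since they are not raw counts, and the number of reads per library was not estimated. The members and gene lists were chosen with earlier results of these data known.

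Elements were assigned to RefSeq starts (GRCm38.p6). The named elements were, for each gene, the element at its start and the called element with the largest log2 difference per stimulus, giving 18 of 24, with 6 chosen after their values were seen. For Cebpb, Cebpd and Cebpe, with no centre within 1 kb of the start, the element holding the start was used. This exception was not made for marker genes, other family genes or target genes. limma 3.58.1 (R 4.3.3) was run on log2(value + 5), for elements with a mean of at least 10 in the libraries fitted, with Benjamini-Hochberg adjustment over all elements tested, after a test on simulated data. The study used an impulse model on counts for this step. Inhibitor responses had compound as a factor, levels against DMSO had time as a factor, and families had the 6 runs of table columns as a technical factor. Alternatives were another pseudocount, no filter, quantile normalization, equal totals, other thresholds, leaving out single libraries or compounds, and leaving out the libraries that stood apart (chosen after seeing the data).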

Additional observations from a re-analysis of the deposited data

Results flagged for a closer look

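At 11 of the 40 member elements the direct test of LPS minus IL-4 in DMSO cells was called, and at the time of their largest gap the stimuli differed from UT in opposite directions, each at a limma adjusted p under 0.05. Elements where only 1 of the stimuli passed at that time are not counted. The share of all elements that meet this rule was not computed, so the count is a description of the members. LPS was lower and IL-4 higher at the elements of Cebpa 20279 bp upstream (-3.43 at 4 h), 12475 bp upstream (-1.94 at 4 h), at the start (-3.02 at 4 h) and 20768 bp downstream (-2.90 at 4 h), and at the start element of Klf4 (-1.14 at 1 h). LPS was higher and IL-4 lower at the elements of Cebpb 3591 bp upstream (3.55 at 4 h) and at the start (1.76 at 4 h), at the Klf10 element 14046 bp downstream (2.62 at 2 h), and at the Klf6 elements 15912 bp upstream (1.04 at 30 min), over the coding exon (1.54 at 4 h) and 13762 bp downstream (1.55 at 4 h). The call at the Klf6 element 15912 bp upstream was lost without IL-4 30 min replicate 2 (0.97) and without LPS 30 min replicate 2 (0.89). Both courses start from the same UT libraries. Groups of DMSO libraries hold 2 samples each, so no group was checked for a single sample far from the others.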

How the results depend on the processing

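With single libraries left out, the count of called members was 19 to 23 after LPS, 8 to 11 after IL-4 and 21 to 23 for LPS against IL-4. A log2 threshold of 0.5 gave 21 after IL-4 in place of 10 (41.8% of all elements). For inhibitors against DMSO, quantile normalization left 90 member pairs after LPS and 134 after IL-4, in place of 816 and 734. Without the libraries that stood apart there were 832 and 744. The mean of all compounds as reference left 45 and 64, and that reference without the libraries that stood apart 52 and 69. Leaving out either DMSO replicate gave 583 to 682 after LPS and 609 to 623 after IL-4. For the families, quantile normalization called 1 member after LPS and 1 without stimulus, and leaving out 1 compound gave 0 to 13 after LPS, 0 to 0 after IL-4 and 0 to 3 without stimulus, where Losmapimod (2, against 7.36% of all elements) or VX702 (3, against 9.47%) was left out of the p38 family. The causes were not tested. Replicate numbers did not pair the samples, since deviations from the group means correlated between -0.0873 and 0.0664 over 36 pairs of groups, and a replicate block gave 22, 10 and 21 calls. Of 2400 values of the 24 named elements in the DMSO courses, the tests of LPS against IL-4 and of 4 h against 30 min, and the responses of inhibitor-treated cells, 2321 kept their side of the threshold, and 44 lost and 35 gained a call. A change of sign was counted only where the main or the alternative value was called, and 0 were found. Sign changes between uncalled values were not counted. Elements near 10 normalized reads, where rounding and the pseudocount weigh most, are the least certain, and the 2 replicates per group limit the DMSO courses.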
